A study of Mus musculus with 8 samples.

Results

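The glutathione transferases, glutathione peroxidases and peroxiredoxins were described in 4 mouse tumor cell lines. Members were the protein-coding genes of the deposited table whose symbols begin with Gst and a class letter (a, m, p, t, o, k or z), Mgst, Gpx or Prdx followed by a number, pseudogenes and symbols ending in b left out. The rule found 30 of 18768 genes: 17 cytosolic or kappa glutathione transferases, 3 microsomal glutathione transferases, 5 glutathione peroxidases and 5 peroxiredoxins. The rule itself used no measured value, but it was set with earlier results of these data known. The lines came from fibrosarcomas that methylcholanthrene, a chemical carcinogen injected under the skin in peanut oil, had induced in C57BL/6 mice. MC010 and MC011 carried the label IRF8 KO, from knockout mice for the transcription factor IRF8, and MC654 and MC659 carried the label WT, from mice with an intact gene. All 4 lines had gone through the same carcinogen, had been passaged in RPMI medium with serum and antibiotics, and were sequenced without further treatment. Ages were not given in the sources used here. Each line was 1 tumor and had 2 libraries, numbered 1 and 2, so 4 libraries stood against 4 but only 2 tumors against 2. Tumor of origin and IRF8 genotype cannot be told apart beyond that, and the p-values below measure the spread between libraries.

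Glutathione transferases join the tripeptide glutathione to reactive electrophiles such as lipid aldehydes and carcinogen metabolites. The cytosolic enzymes fall into classes named by Greek letters, while the microsomal enzymes are unrelated membrane proteins, some of which also reduce lipid hydroperoxides. Glutathione peroxidases reduce hydrogen peroxide and organic hydroperoxides, several of them through a selenocysteine in the active site, and GPX4 acts on phospholipid hydroperoxides in membranes and thereby restrains ferroptosis, an iron-dependent form of cell death. Peroxiredoxins reduce peroxides through a reactive cysteine that is mostly restored by thioredoxin. The transcription factor NRF2 is known to induce many of these genes through the antioxidant response element.

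The libraries held 74063616 to 116206078 counts. A count of 3, taken as the floor, was worth 0.0262 to 0.0408 CPM (read counts relative to the TMM-scaled size of the library), a limit that covers counting error only. The 2 libraries of each line differed by more than counting noise (chi-square 8.18 to 14.4 per degree of freedom) and were kept as separate libraries. Irf8 itself had 442 and 347 counts in MC010, 32 and 10 in MC011, 1 and 2 in MC654, and 1 and 0 in MC659. Its RNA went against the labels. The paper genotyped the lines by PCR on genomic DNA and reported MC010 and MC011 as IRF8 KO and MC654 and MC659 as WT. Counts per gene do not show which part or allele of Irf8 the reads came from, so the genotype was not tested here. The lines are named by their labels throughout and every direction below rests on those labels. All 10 fibroblast and mesenchymal markers exceeded 1 CPM in every library, with a summed level of 11114 to 11941 CPM in the libraries labelled IRF8 KO and 15924 to 17555 CPM in those labelled WT. By the thresholds set out below, Fn1, the fibronectin gene, alone was lower under the label IRF8 KO, at -2.33 on the log2 scale. Pdgfra, Thy1 and S100a4 were higher. Against the WT lines Thy1 was higher in MC011 (2.72) and not in MC010 (0.21). Without reaching both thresholds, Col1a2 (-1.08) lay below WT in all libraries labelled IRF8 KO, and Vim (0.39) lay above. Without Fn1 the sums were 9280 to 10778 CPM and 8145 to 9458 CPM. The 5 endothelial markers summed to 0.633 to 1.01 CPM and 0.703 to 0.887 CPM, the 5 of 10 hematopoietic markers in the table to 5.75 to 7.38 CPM and 9.83 to 11.8 CPM, the 5 epithelial markers to 34.1 to 565 CPM and 114 to 129 CPM, and the single hepatocyte marker in the table to at most 0.136 CPM. The part of any of these in the results was not tested. In cultures of this kind, fewer cells that express a gene and less of its RNA per cell cannot be told apart.

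Upstream sequence is shown for the member with the smallest adjusted p between the labels, Mgst3, and for Prdx1 and Gstm5, whose upstream bases hold the core of an antioxidant response element. The core was searched as TGACNNNGC on both strands of RefSeq windows running from 250 bases before to 50 bases after a gene start (GRCm38.p6). The 150 bases just upstream of each gene as the deposited table places it are printed 5′ to 3′ on the strand of the gene, with the matching bases in capitals. The Mgst3 bases lie at chr1:167393842-167393991 on the minus strand, Prdx1 at chr4:116685394-116685543 on the plus strand and Gstm5 at chr3:107895671-107895820 on the plus strand.
Mgst3: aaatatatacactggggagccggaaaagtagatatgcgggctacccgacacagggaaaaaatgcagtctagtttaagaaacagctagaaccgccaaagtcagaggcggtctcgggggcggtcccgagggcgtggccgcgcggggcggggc
Prdx1: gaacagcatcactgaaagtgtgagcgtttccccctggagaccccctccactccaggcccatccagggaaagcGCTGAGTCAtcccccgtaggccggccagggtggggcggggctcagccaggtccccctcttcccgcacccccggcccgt
Gstm5: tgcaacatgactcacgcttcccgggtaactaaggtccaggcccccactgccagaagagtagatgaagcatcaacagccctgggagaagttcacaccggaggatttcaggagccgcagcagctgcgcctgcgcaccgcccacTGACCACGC

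The Prdx1 match reads TGACTCAGC on the strand opposite to the gene and also contains TGACTCA, the site of AP-1, a letter string that 5.2% of all windows hold. The Gstm5 match reads TGACCACGC, on the same strand as the gene, and the Gstm5 bases shown also hold TGACTCA, away from that match. Gstm7 and Mgst1 also had a match, which fell inside the gene as the deposited table places it, and their bases are not shown. A window was at hand for 27 of the 30 members, all but Gsta4, Gstt2 and Prdx6. The core was in 4 of the 27, or 14.8%, against 14% of all 27025 genes with a window. Of the 4, Gstm7, Mgst1 and Prdx1 stood higher under the IRF8 KO label, as given below, and Gstm5 was not. Higher there were also 9 of all 27 tested members and 13.7% of all genes tested. The Prdx1 call held in 2 of 8 fits with a library left out. Whether the core goes with the levels was not tested. The absence of the string in the Mgst3 window says only that these letters are not in those bases.

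A gene was called between groups when its adjusted p was under 0.05 and its log2 fold change exceeded 0.59 in either direction (edgeR's quasi-likelihood test, Benjamini-Hochberg over all 15153 genes tested). "Higher" and "lower" are used below for differences past both. After edgeR's filter on low counts, 27 of the 30 members were tested, and each of them exceeded the filter's level of about 0.115 CPM in at least 6 of the 8 libraries. Gsta1, Gsta2 and Gpx3 were not tested. Between the labels, 9 members were higher under IRF8 KO and 2 were lower. Among all genes tested, 13.7% were higher and 8.72% were lower. The 9 members made up 33.3% of those tested and the 2 made up 7.41%. With the 2 libraries of a line summed, so that 2 tumors stood against 2, edgeR called 0 members in either direction, with 10 of 28 tested at an unadjusted p under 0.05. That fit likewise called 0 of all 16927 genes, with 21.6% of them at an unadjusted p under 0.05. With limma-voom and the line as a random block, 5 members were higher and 1 lower, against 6.91% and 5.54% of all genes. The median log2 fold change was 0.33 over the 27 members and 0.02 over all genes. In 11 of the 27 tested members all 4 libraries labelled IRF8 KO were above all 4 labelled WT, and in 3 all were below, against 22.1% and 20.5% of all genes.

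**Figure D1:**
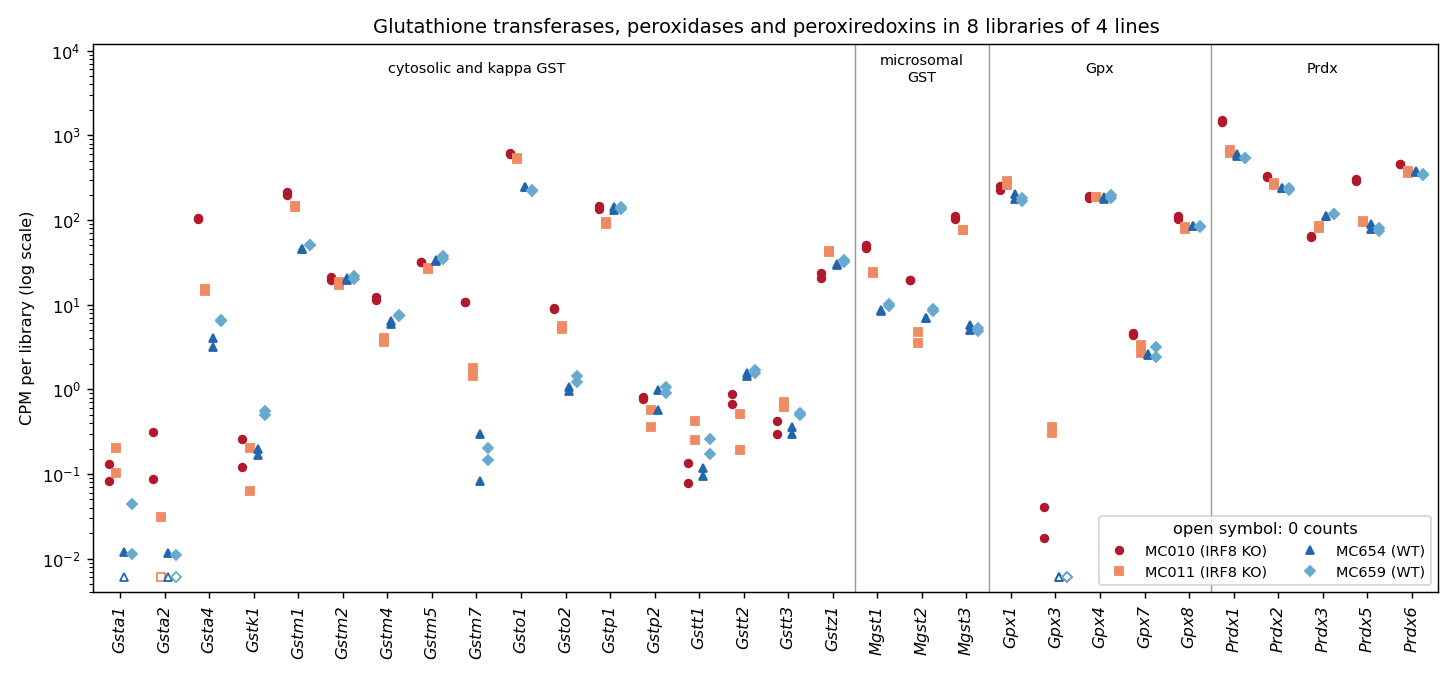
CPM of each of the 30 members (log scale) in the 8 libraries, grouped by family, with 2 symbols per line and open symbols at the bottom for libraries with 0 counts. The red and orange symbols of MC010 and MC011 stand above the blue ones of MC654 and MC659 for Mgst3, Gsto1 and Gstm1, and all lines coincide for Gpx4.

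The microsomal glutathione transferases had a larger summed level in both IRF8 KO lines than in either WT line. Summed per kb of exon, the 3 genes reached 127.5 CPM per kb in MC010 and 82.5 in MC011, against 11.0 in MC654 and 11.9 in MC659 (means of 2 libraries). Mgst3, a membrane-bound transferase and peroxidase (chromosome 1, 167371966 to 167393841, minus strand), had 113 and 102 CPM in MC010, 76.5 and 75.8 in MC011, 5.75 and 5.06 in MC654, and 4.85 and 5.26 in MC659. All libraries labelled IRF8 KO lay far above all those labelled WT, and the IRF8 KO lines themselves did not overlap. The log2 fold change was 4.13 (SE 0.16, adjusted p = 3.06e-06 from edgeR), the smallest adjusted p among the members. It was called with each library and each line left out, at 3.84 to 4.35 over the fits that left out a line. In the IRF8 KO lines Mgst3 made up 76.8% (MC010) and 84.1% (MC011) of the family's summed level per kb, against 44.7% in MC654 and 38.7% in MC659.

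Mgst1, the best known microsomal transferase, which protects membranes from lipid peroxidation (chromosome 6, 138140316 to 138156755, plus strand), had 50.8 and 47.1 CPM in MC010, 23.6 and 24.6 in MC011, 8.55 and 8.45 in MC654, and 10.3 and 9.62 in MC659. The labels did not overlap, and MC010 stood above MC011. Its log2 fold change between the labels was 1.99 (SE 0.28, adjusted p = 0.00104 from edgeR) and 1.02 (SE 0.07) between MC010 and MC011 (adjusted p = 2.84e-09 from edgeR). Mgst2, which can form leukotriene C4 from leukotriene A4 and glutathione (chromosome 3, 51660360 to 51682677, plus strand), had 19.5 and 19.3 CPM in MC010, 3.52 and 4.70 in MC011, 6.89 and 7.002 in MC654, and 8.43 and 8.92 in MC659. Here the IRF8 KO lines lay on either side of the WT lines. Against the mean of the WT lines the log2 fold change was 1.32 (SE 0.09) in MC010 and -0.93 (SE 0.11) in MC011, both called. Between the labels it was 0.59 (SE 0.55) with an adjusted p of 0.440 from edgeR.

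Among the cytosolic and kappa glutathione transferases, 5 of 15 tested were higher and 1 was lower between the labels. Their summed level per kb of exon was 675 CPM per kb in MC010, 477 in MC011, 293 in MC654 and 293 in MC659. The omega class was higher as a pair. Gsto1, which acts as a thioltransferase and reduces dehydroascorbate (chromosome 19, 47854970 to 47864790, plus strand), had 608 and 615 CPM in MC010, 523 and 536 in MC011, 243 and 247 in MC654, and 220 and 225 in MC659. Gsto2, its neighbor with a similar activity, whose start lies 10.6 kb away from that of Gsto1, was far scarcer, at 9.11 and 8.95 CPM in MC010, 5.18 and 5.53 in MC011, 1.05 and 0.953 in MC654, and 1.43 and 1.21 in MC659. In both genes the labels did not overlap. The log2 fold changes were 1.29 (SE 0.08, adjusted p = 1.64e-05) for Gsto1 and 2.63 (SE 0.26, adjusted p = 0.000203) for Gsto2, from edgeR. Per kb of exon, Gsto1 was the most abundant transferase in every line and made up 44.8% of the family in MC010, 54.9% in MC011, 41.4% in MC654 and 37.5% in MC659. Both genes lie within Cfap43 on the other strand, but share no exon base with it, and Cfap43 had a log2 fold change of 0.31 (adjusted p = 0.153 from edgeR).

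The mu class is a cluster of 5 members within 149.1 kb of chromosome 3, in the order Gstm5, Gstm7, Gstm2, Gstm1 and Gstm4, and its members differed from one another in direction and size. Gstm1, the most abundant mu class member in all lines per kb of exon (108012255 to 108017973, minus strand), had 215 and 198 CPM in MC010, 145 and 143 in MC011, 45.3 and 45.0 in MC654, and 50.1 and 50.8 in MC659. Gstm7 (107926334 to 107931817, minus strand) was low in all lines but MC010, at 10.6 and 10.9 CPM in MC010, 1.79 and 1.44 in MC011, 0.300 and 0.0824 in MC654, and 0.147 and 0.200 in MC659. For both genes the libraries labelled IRF8 KO all lay above those labelled WT. The log2 fold change between the labels was 1.87 (SE 0.15, adjusted p = 7.41e-05) for Gstm1 and 5.07 (SE 0.86, adjusted p = 0.00271) for Gstm7, from edgeR. The Gstm7 value rests on 7 to 25 counts per WT library, and its call was lost with MC659 left out (adjusted p = 0.0638). Of the 50-base stretches of Gstm1 transcripts, 18.9% also occur in transcripts of other genes, 14.1% in Gstm2-ps1, so part of its count is uncertain.

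Between Gstm7 and Gstm1 on the chromosome, Gstm2 was nearly level, at 17.1 to 21.3 CPM over all 8 libraries with a log2 fold change of -0.11 (SE 0.09). Gstm5 had 26.4 to 31.7 CPM in the libraries labelled IRF8 KO and 33.0 to 37.7 in those labelled WT, without overlap. Its log2 fold change of -0.26 (SE 0.09, adjusted p = 0.0490 from edgeR) did not reach the fold threshold. It shares 13.9% of its exon bases with 4933431E20Rik on the other strand, which was higher by 1.14 on the log2 scale, opposite to Gstm5. Gstm4, at the end of the cluster, had 11.3 and 12.2 CPM in MC010, 3.61 and 4.00 in MC011, 6.42 and 5.97 in MC654, and 7.50 and 7.45 in MC659. Like Mgst2 it was higher in MC010 (log2 fold change 0.79, SE 0.09) and lower in MC011 (-0.84, SE 0.10) than in the WT lines, and its difference between the labels was 0.19 (SE 0.41, adjusted p = 0.758 from edgeR).

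**Figure D2:**
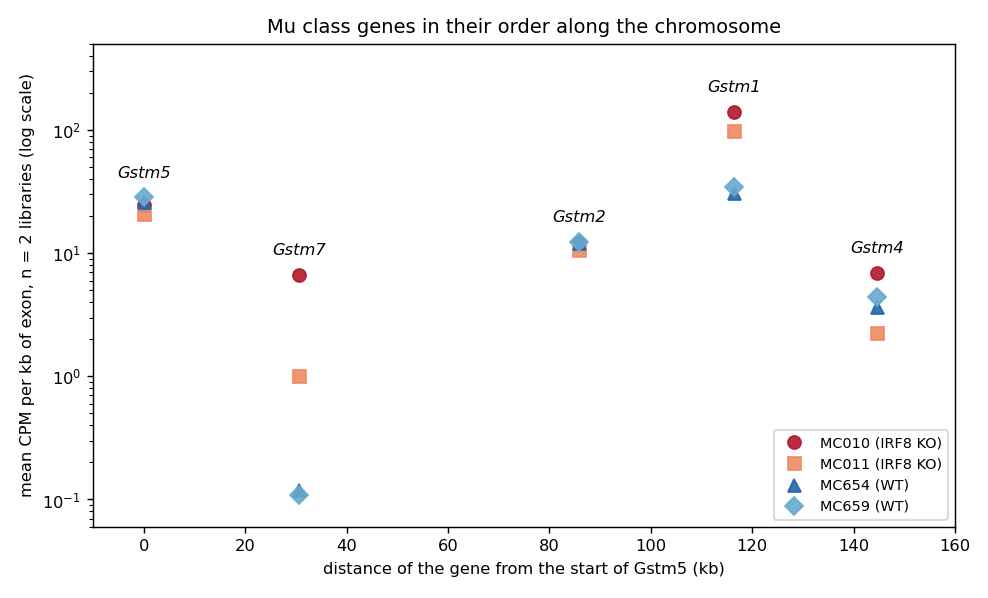
Mean CPM per kb of exon (log scale, n = 2 libraries per line) of the 5 mu class genes against the distance of each gene from the start of Gstm5. MC010 and MC011 stand above MC654 and MC659 at Gstm7 and Gstm1, all lines nearly coincide at Gstm2 and Gstm5, and at Gstm4 the WT lines lie between MC010 and MC011.

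Gsta4, the alpha class enzyme that conjugates 4-hydroxynonenal, an aldehyde formed from peroxidized lipids (chromosome 9, 78182774 to 78209349, plus strand), had 105 and 102 CPM in MC010, 14.7 and 15.4 in MC011, 4.01 and 3.13 in MC654, and 6.58 and 6.45 in MC659. No 2 lines overlapped, and the 4 libraries labelled IRF8 KO were above the 4 labelled WT. The log2 fold change between the labels was 3.55 (SE 0.76, adjusted p = 0.00786 from edgeR), and it was 2.78 (SE 0.08) between MC010 and MC011. With line MC654 or MC659 left out the adjusted p was 0.112 and 0.0755. Gsta4 was also the only member called between the WT lines, at -0.87 (SE 0.10, adjusted p = 2.19e-05 from edgeR) for MC654 against MC659. Its alpha class neighbors on chromosome 9 were barely detected. Gsta1 had 15, 6, 10 and 16 counts in the libraries labelled IRF8 KO and 1, 0, 1 and 4 in those labelled WT. Gsta2 had 10 and 23 counts in MC010, 3 and 0 in MC011, 0 and 1 in MC654, and 0 and 1 in MC659. Transcripts of Gsta1 share 90.5% of their 50-base stretches with other genes and those of Gsta2 49.8%, so neither count can be assigned firmly.

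The pi class enzyme Gstp1, a widely expressed transferase often abundant in tumors (chromosome 19, 4035407 to 4037921, minus strand), had 146 and 135 CPM in MC010, 89.1 and 94.2 in MC011, 142 and 131 in MC654, and 135 and 143 in MC659. MC011 alone stood apart, below the other 3 lines. The difference between the labels was -0.25 on the log2 scale (SE 0.16, adjusted p = 0.266 from edgeR), and MC010 exceeded MC011 by 0.62 (SE 0.06, adjusted p = 1.40e-07 from edgeR). Without library 1 of MC010 or of MC011 that difference was 0.57 and 0.58, short of the fold threshold. Its neighbor Gstp2 was at 0.354 to 1.07 CPM in all libraries, and 33.7% of the 50-base stretches of Gstp1 also occur in Gstp2. Gstz1, the maleylacetoacetate isomerase of tyrosine breakdown, was lowest in MC010 at 20.5 to 23.9 CPM and highest in MC011 at 42.3 to 42.6, with the WT lines at 29.5 to 33.6. Gstz1 shares 9.14% of its exon bases with Pomt2 on the other strand. Pomt2 was likewise lower in MC010 than in MC011, by a log2 difference of -0.60 (adjusted p = 1.90e-06 from edgeR), with means of 19.4 CPM in MC010, 29.5 in MC011, 26.2 in MC654 and 24.8 in MC659.

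The theta class was scarce in these lines. Gstt2 (chromosome 10, 75831114 to 75837424, minus strand) had 0.883 and 0.667 CPM in MC010, 0.508 and 0.190 in MC011, 1.56 and 1.42 in MC654, and 1.68 and 1.56 in MC659, and the labels did not overlap. It was lower under the IRF8 KO label by a log2 fold change of -1.46 (SE 0.41, adjusted p = 0.0244 from edgeR). The call was lost without library 1 of MC011 or any 1 library of the WT lines, with adjusted p-values of 0.0508 to 0.0610 in edgeR, and also with the whole line MC654 (0.126) or MC659 (0.153) left out. Gstt1 had 0.0787 and 0.136 CPM in MC010, 0.425 and 0.253 in MC011, 0.0959 and 0.118 in MC654, and 0.170 and 0.256 in MC659, from 8 to 41 counts per library. Gstt3 had 0.294 to 0.709 CPM and the kappa class Gstk1, an enzyme of mitochondria and peroxisomes, 0.0622 to 0.555 CPM. Neither passed the test between the labels, with log2 fold changes of 0.28 (SE 0.35) and -1.16 (SE 0.56).

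None of the 4 glutathione peroxidases tested was called between the labels. The family summed to 381 CPM per kb in MC010, 378 in MC011, 321 in MC654 and 314 in MC659. Gpx1, the main cytosolic selenoenzyme (chromosome 9, 108338903 to 108340343, plus strand), had 254 and 225 CPM in MC010, 288 and 262 in MC011, 203 and 179 in MC654, and 167 and 183 in MC659. Its labels did not overlap. The log2 fold change of 0.49 (SE 0.09, adjusted p = 0.00361 from edgeR) was under the fold threshold. Gpx4, the phospholipid hydroperoxidase (chromosome 10, 80047166 to 80056439, plus strand), had 190 and 182 CPM in MC010, 185 and 186 in MC011, 186 and 175 in MC654, and 184 and 197 in MC659. The libraries of all lines overlapped. Of the 50-base stretches of Gpx4 34.7% also occur in its pseudogene Gpx4-ps2.

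Gpx8, an enzyme of the endoplasmic reticulum that uses cysteine in place of selenocysteine (chromosome 13, 113042759 to 113046386, minus strand), had 104 and 112 CPM in MC010, 78.8 and 82.8 in MC011, 85.0 and 85.6 in MC654, and 83.7 and 84.1 in MC659. MC010 stood above the other 3 lines, by 0.42 (SE 0.05) over MC011 on the log2 scale, and the difference between the labels was 0.16 (SE 0.11, adjusted p = 0.314 from edgeR). Gpx7, its relative in the same compartment, had 4.42 and 4.63 CPM in MC010 and 2.39 to 3.38 in the other lines. Gpx3, the secreted plasma form, was detected above the floor in MC011 only, with 35 and 24 counts, against 2 and 3 in MC010 and 0 in every WT library. Against a floor of 3 counts per WT library its mean in MC011 was at least 9.62-fold higher. The MC010 libraries were at or under the floor.

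**Figure D3:**
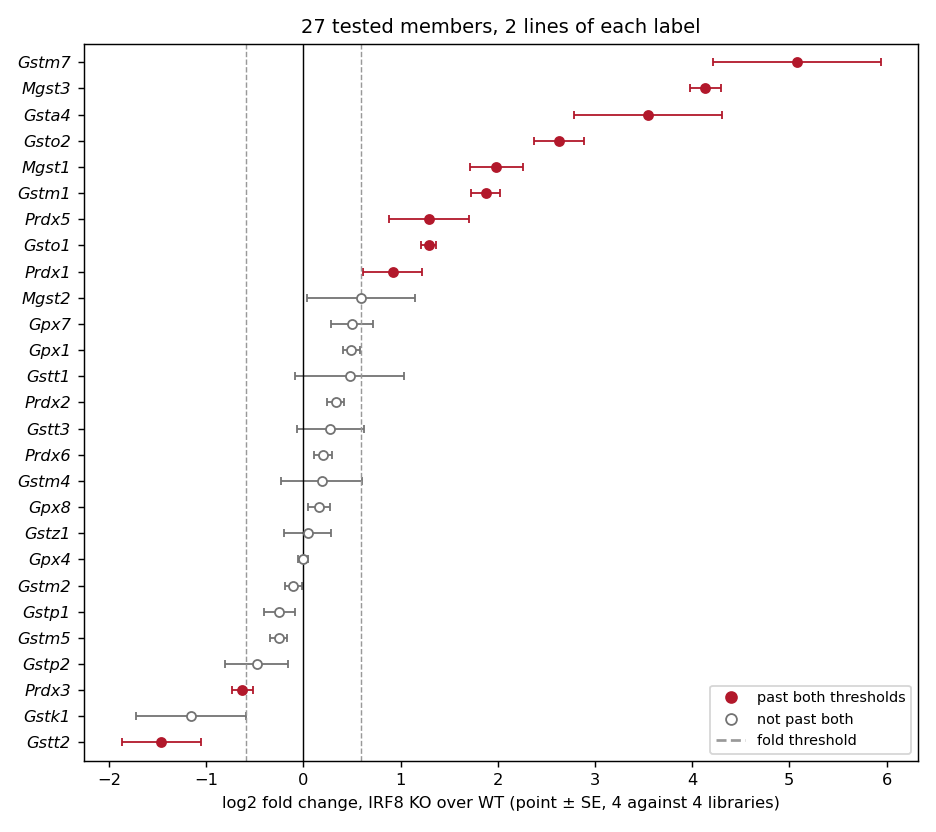
Log2 fold change (± SE) of the 27 tested members between the 4 libraries labelled IRF8 KO and the 4 labelled WT, ordered by size, with filled symbols for those past both thresholds and dashed lines at ±0.59. Gstm7, Mgst3 and Gsta4 stand at the top at 5.07, 4.13 and 3.55, and Gstt2 and Prdx3 are the filled symbols left of 0.

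Per kb of exon, the 5 member peroxiredoxins summed to 873 CPM in MC010, 477 in MC011, 463 in MC654 and 441 in MC659. MC010 alone stood apart. Other peroxiredoxins, if any, are not in these sums. Prdx1, the abundant cytosolic enzyme (chromosome 4, 116685544 to 116700822, plus strand), had 1445 and 1527 CPM in MC010, 616 and 671 in MC011, 578 and 598 in MC654, and 543 and 536 in MC659. Prdx1 alone made up 55.9% of the sum of these 5 per kb in MC010. Prdx5, found in mitochondria, peroxisomes and cytosol (chromosome 19, 6906697 to 6910106, minus strand), had 303 and 292 CPM in MC010, 97.6 and 94.8 in MC011, 89.8 and 78.6 in MC654, and 73.8 and 79.4 in MC659. In both genes the libraries of MC011 lay just above those of the WT lines, and the difference between the labels came mostly from MC010.

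Between the labels the log2 fold change was 0.92 for Prdx1 (SE 0.30, adjusted p = 0.0457) and 1.29 for Prdx5 (SE 0.41, adjusted p = 0.0380), from edgeR. With line MC010 left out, they were 0.17 and 0.24, and with MC654 or MC659 left out neither was called. For both genes the call was lost without any 1 library of MC010, MC654 or MC659, with adjusted p-values of at most 0.108 for Prdx1 and 0.0964 for Prdx5 in edgeR. MC011 exceeded the WT lines by 0.19 (SE 0.04) for Prdx1 and 0.26 (SE 0.05) for Prdx5, under the fold threshold. Prdx5 shares 19.1% of its exon bases with Trmt112 on the other strand, which was itself higher by 0.61 on the log2 scale.

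Prdx3, the mitochondrial peroxiredoxin (chromosome 19, 60864051 to 60874556, minus strand), went the other way. It had 62.3 and 65.4 CPM in MC010, 80.6 and 86.1 in MC011, 110.2 and 110.1 in MC654, and 119 and 117 in MC659. Every library labelled IRF8 KO was below every library labelled WT. The log2 fold change was -0.63 (SE 0.11, adjusted p = 0.00289 from edgeR), close to the fold threshold, and it was -0.56 and -0.58 without library 1 or 2 of MC010. With line MC010 left out it was -0.47, and with MC659 left out the adjusted p was 0.0540. Prdx6, which also has phospholipase activity (chromosome 1, 161240112 to 161251219, minus strand), had 454 and 458 CPM in MC010, 361 and 377 in MC011, 367 and 376 in MC654, and 349 and 341 in MC659. MC010 was above the rest, and the difference between the labels was 0.20 (SE 0.09, adjusted p = 0.112 from edgeR). Prdx2, a second cytosolic enzyme, had 257 to 335 CPM in the libraries labelled IRF8 KO and 226 to 240.1 under WT, with a log2 fold change of 0.33 (SE 0.09, adjusted p = 0.0202 from edgeR) under the fold threshold.

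**Figure D4:**
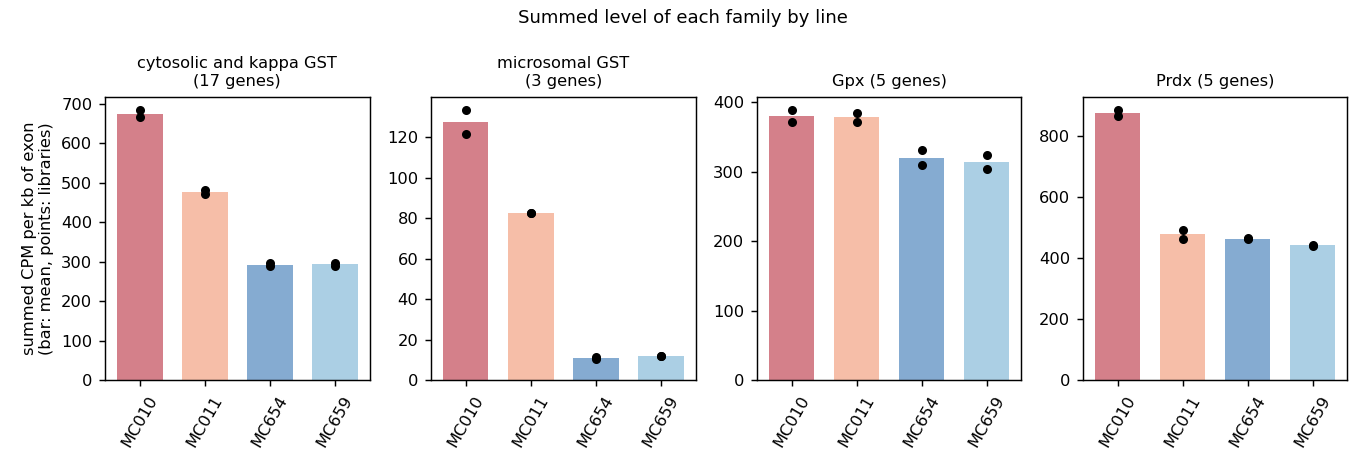
Summed CPM per kb of exon of each family by line, with bars at the mean and points at the 2 libraries. The microsomal sums of 127.5 and 82.5 in MC010 and MC011 stand against 11.0 and 11.9 in the WT lines, and the peroxiredoxin sum of MC010 (873) stands apart from the other 3 lines.

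Each IRF8 KO line was then compared with the mean of the WT lines in a fit with 1 group per line. In MC010, 12 members were higher and 2 lower, against 19.7% and 17.4% of all genes. In MC011, 9 were higher and 5 lower, against 17.3% and 13.4% of all genes. These comparisons share the WT libraries, so their values are given side by side. The members higher in both were Gsta4, Gstm1, Gstm7, Gsto1, Gsto2, Mgst1 and Mgst3. The log2 fold changes in MC010 and MC011 were 4.36 and 3.86 for Mgst3, 5.87 and 3.15 for Gstm7, 4.42 and 1.64 for Gsta4, 2.97 and 2.22 for Gsto2, 2.41 and 1.39 for Mgst1, 2.12 and 1.59 for Gstm1, and 1.39 and 1.18 for Gsto1. Each of the 7 had the larger estimate in MC010, and the difference between MC010 and MC011 was itself past both thresholds for Gsta4, Gstm7, Gsto2 and Mgst1. Gstt2 was lower in both lines, at -0.99 and -2.11. Gstm4, Gpx7, Mgst2, Prdx1 and Prdx5 were called higher in MC010 and not in MC011. Gstt1 at 1.17 and Gpx1 at 0.591 were called higher in MC011 and not in MC010. DESeq2 called neither of them in MC011. Gpx1 lay barely past the fold threshold of 0.59, and Gstt1 had 8 to 41 counts per library. The members called lower in MC011 were Gstk1, Gstm4, Gstp2, Gstt2 and Mgst2, a count of 3 without library 1 of MC654 or library 2 of MC659. Those called lower in MC010 were Gstt2 and Prdx3, and without library 2 of MC010 only Prdx3 was.

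The IRF8 KO lines were then compared with each other. MC010 was higher than MC011 in 11 members and lower in 3, against 15.7% and 16% of all genes. The largest differences were 2.78 for Gsta4, 2.72 for Gstm7, 2.25 for Mgst2 and -1.71 for Gstt1 on the log2 scale, followed by 1.63 for both Prdx5 and Gstm4. Between the WT lines 0 members were higher in MC654 by edgeR, and 0 by DESeq2. Gsta4 alone was lower in MC654, against 1.24% of all genes higher and 3.71% lower by edgeR. At an unadjusted p under 0.05 in edgeR, 4 members had a positive difference and 7 a negative one. In DESeq2, 10 of 27 had an unadjusted p under 0.05 in either direction, against 24.8% of all genes. Mgst2 and Gstm4 were the members on opposite sides of the WT lines past both thresholds, 2 of 27, beside 416 of all 15153 genes. Of the 5 epithelial markers, 2 were higher and 3 lower in MC010 than in MC011. Krt8 and Krt18 were past both thresholds on opposite sides of the WT lines, as Mgst2 and Gstm4 were, with means of 284 and 264 CPM in MC010 and 1.29 and 31.4 CPM in MC011. Epcam, Cdh1 and Krt14 were lower in MC010, at log2 differences of -1.54, -4.72 and -3.96, with a mean under 1 CPM in every line. Their part in the result was not tested.

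**Figure D5:**
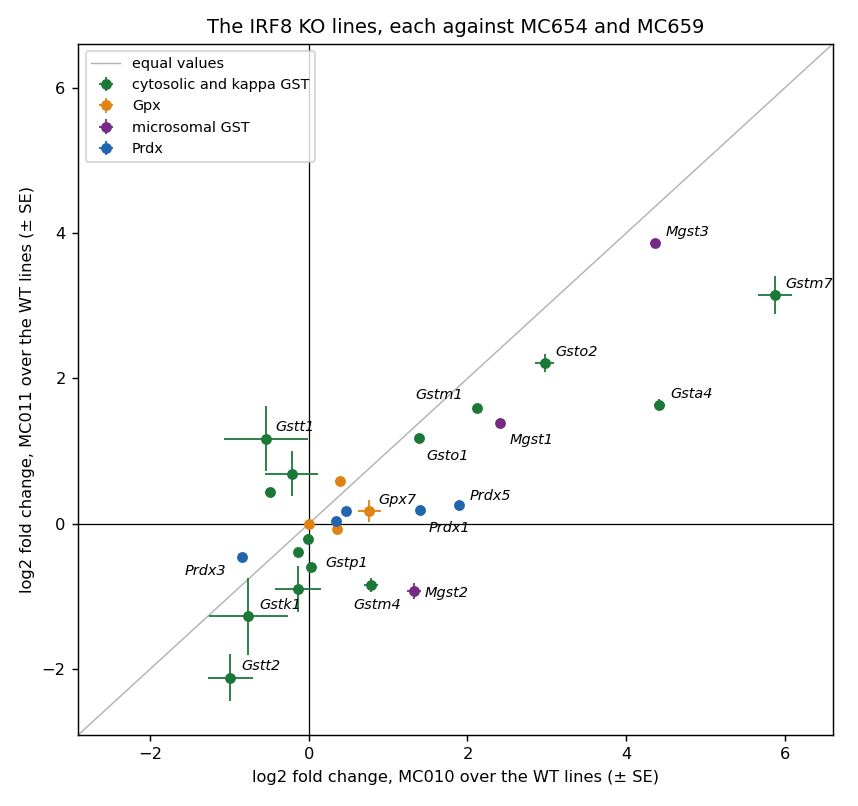
Log2 fold change (± SE) of the 27 tested members in MC010 (horizontal) and MC011 (vertical), each against the mean of the WT lines, colored by family, with a grey line where both values are equal. Mgst3 lies near the line at 4.36 and 3.86, Prdx1 and Prdx5 extend along the horizontal axis, and Mgst2 and Gstm4 lie in the lower right, right of and below 0.

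The partner systems of these enzymes were counted from lists. Of 15 tested genes that make, recycle, break down or export glutathione, 2 were higher and 3 lower between the labels, with a median log2 fold change of -0.10. Gclm, the modifier subunit of the rate-limiting synthesis enzyme, was higher by 1.08 (SE 0.19), and Oplah, the oxoprolinase of the glutathione cycle, by 2.66 (SE 0.30). Gss, the glutathione synthetase, was lower at -0.69 (SE 0.18), as were Ggt7 at -3.96 (SE 0.36) and Cth, which makes cysteine from cystathionine, at -2.73 (SE 0.22). Slc7a11, the cystine importer, lay on opposite sides of the WT lines, at 1.99 in MC010 and at -0.59 in MC011, with line means of 128 and 21.4 CPM against 29.4 and 35.4 CPM in MC654 and MC659.

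Of 16 tested genes for thioredoxin, glutaredoxin and peroxiredoxin repair, 4 were higher and 2 lower, with a median of 0.24. Srxn1, the sulfiredoxin that restores overoxidized peroxiredoxins, had 317 and 318 CPM in MC010, 163 and 170.1 in MC011, 88.9 and 91.3 in MC654, and 77.3 and 79.3 in MC659, the same order of lines as Prdx1. Its log2 fold change was 1.52 (SE 0.24, adjusted p = 0.00205 from edgeR). Txnrd1, the cytosolic thioredoxin reductase, was higher by 0.78 (SE 0.24), Glrx, a glutaredoxin, by 1.28 (SE 0.08) and Nxn, nucleoredoxin, by 0.78 (SE 0.06). Sesn2, a stress-induced sestrin, was lower at -1.56 (SE 0.14) and Glrx3 at -0.61 (SE 0.13).

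Of the superoxide dismutases and catalase, 2 of 4 were higher, with a median of 0.56. The cytosolic Sod1 differed by 0.71 (SE 0.17), and the secreted Sod3 by 5.57 (SE 1.03) from a mean of at most 0.0611 CPM in a WT line. Cat, the peroxisomal catalase, was on opposite sides, at 1.01 in MC010 and -0.62 in MC011. Among 9 tested relatives with a transferase fold or of the microsomal superfamily, 3 were higher and 1 lower, with a median of 0.02. Ptges, the inducible prostaglandin E synthase, was higher by 1.68 (SE 0.17), the chloride channel proteins Clic1 and Clic5 by 0.72 (SE 0.16) and 2.06 (SE 0.36), and Ltc4s, the leukotriene C4 synthase, was lower at -2.07 (SE 0.66) from means under 0.7 CPM in all lines.

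Of 10 genes for selenocysteine insertion and selenium supply, 1 was higher and 2 lower, with a median of 0.02. Lrp8, a receptor for selenoprotein P, was higher by 0.88 (SE 0.25), and Pstk and Trit1, which act on the selenocysteine tRNA, were lower at -0.61 (SE 0.14) and -0.64 (SE 0.19). Selenop itself was lower in MC010 (-2.58) and higher in MC011 (2.05) than in the WT lines. Of 8 genes linked to ferroptosis outside GPX4, 1 was higher and 1 lower, with a median of 0.03. Nqo1, a quinone reductase and a standard NRF2 target, had 399 and 405 CPM in MC010, 89.2 and 93.3 in MC011, 52.9 and 51.6 in MC654, and 47.7 and 45.7 in MC659, a log2 fold change of 2.32 (SE 0.54, adjusted p = 0.0114 from edgeR). Dhcr7, which turns 7-dehydrocholesterol, a sterol that itself limits lipid peroxidation, into cholesterol, was lower at -1.10 (SE 0.10).

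Of the 6 genes for NRF2 and its regulators, 2 were higher and none lower, with a median of 0.52. Bach1, a repressor at the same element, was higher by 0.71 (SE 0.06) and Maff, a small MAF partner, by 1.23 (SE 0.14). Nfe2l2, which encodes NRF2, differed by 0.54 (SE 0.05) and Keap1, its inhibitor, by 0.49 (SE 0.10). Both had an adjusted p under the threshold (9.83e-05 and 0.00599 from edgeR) and did not reach the fold threshold, so they were named here after their values were seen. These lists count beside the same shares of all genes given above, 13.7% higher and 8.72% lower.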

How the data were processed

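RNA from 4 cell lines, 2 libraries each, was sequenced from a stranded mRNA library, and the strand setting of the counting was not given in the sources used here. Per the submitters' processing notes, reads were aligned to mm10 (GRCm38.p6) with STAR 2.7.3a, counted with HTSeq 0.11.2 and compared with DESeq2. The authors deposited raw counts per gene and library, with at least 20 counts over the 8 libraries. The authors also deposited a signal (each count divided by 1 size factor per library, and its mean), and their own comparison (per gene a log2 fold change, its SE, the Wald score and p-values), none of which was used. No X- or Y-linked gene was analysed here.

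Raw counts were analysed with edgeR 4.0.16 (R 4.3.3): filterByExpr by label (a minimum count of 10), TMM, and the robust quasi-likelihood test. P-values were adjusted over 15153 genes (Benjamini-Hochberg). One fit had the label alone, 4 libraries against 4. A second had 1 group per line. SEs were the log2 fold change divided by the root of F. Levels are CPM, divided by GENCODE M21 exon length where genes are compared. All 30 members were matched by identifier, and coordinates are those of the deposited table. Sequences are from RefSeq. The fits were run on simulated counts with independent libraries and, for the label fit, no difference between the lines of a label. Such a run cannot show how the label p-values behave with few tumors per label.

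The members and lists were chosen with earlier results of these data known. Values per library were given for members called between the labels, the 6 largest called differences between MC010 and MC011, the 4 largest between MC654 and MC659 (1 was called), and Gpx1, Gpx4, Gpx8, Prdx1, Prdx6, Gstp1, Gstm1 and Mgst1. Genes of the pathway lists were named when called between the labels or on opposite sides of the WT lines, and were not followed through the alternatives. Single marker genes were named after their values were seen. Of the listed pathway and marker genes 13 were not analysed here. Alternatives were DESeq2 1.42.0, upper-quartile scaling, no filter, the library number as a block, each library or line left out, summed counts per line, limma-voom (limma 3.58.1) with the line as a random block, pairs of lines as a block, and no fold threshold.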

Additional observations from a re-analysis of the deposited data

Results flagged for a closer look

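MC010 and MC011, which carry the same label, differed past both thresholds in 14 of 27 tested members (edgeR, 1 group per line). Each line had 2 libraries and came from 1 tumor. Of all genes, 15.7% were higher and 16% lower in MC010. The level of the WT lines cancels out of this comparison, so it is a difference between 2 lines of 1 label. On the log2 scale MC010 exceeded MC011 by 2.78 for Gsta4, 2.72 for Gstm7, 2.25 for Mgst2, 1.63 for Prdx5, 1.63 for Gstm4, 1.21 for Prdx1, 1.13 for Gstt2, 1.02 for Mgst1, 0.76 for Gsto2, 0.62 for Gstp1 and 0.59 for Gpx7. It was below MC011 by -1.71 for Gstt1, -0.93 for Gstz1 and -0.90 for Gstt3. The call for Gstt3 was lost with each of the 8 libraries left out in turn, and that for Gpx7 with 6 of the 8 (all but library 2 of MC010 and library 2 of MC011). The call for Gstt1 was lost without library 1 of MC010 (-1.32) or of MC011 (-1.27), and that for Gstt2 without library 1 of MC010 (0.90) or library 2 of MC011 (0.62). Those for Gsta4, Gstm4, Gstm7, Gsto2, Gstz1, Mgst1, Mgst2, Prdx1 and Prdx5 held with each library left out. No library stood apart within the 4 of a label for any tested member, over 54 groups of 4. Each 4 held 2 lines with 2 libraries each. A difference between lines widened the range, so this check could hardly flag a library and says little about library quality.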

How the results depend on the processing

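With line sums of counts, 2 against 2, 0 members were higher and 0 lower between the labels (edgeR), 10 of 28 tested had an unadjusted p under 0.05, and the smallest adjusted p was 0.0513, for Mgst3. The same fit called 0 of all 16927 genes, with 21.6% at an unadjusted p under 0.05. With limma-voom and the line as a random block, 5 were higher (Gstm1, Gsto1, Gsto2, Mgst1 and Mgst3) and 1 was lower (Prdx3), against 6.91% and 5.54% of all genes. With a replicate block for the library number, 7 were higher, without Prdx1 and Prdx5, and 2 lower, against 12.7% and 7.85% of all genes. The libraries shared only a number, since the deviations of same-numbered libraries correlated at -0.18 to 0.27 over 6 pairs of lines. Upper-quartile scaling lost Prdx1 (adjusted p = 0.0502).

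The number of members lower between the labels was 1 to 2 with a library left out, 5 when line MC010 was dropped, 2 when MC011 was, 1 when MC654 was and 0 when MC659 was. With those lines dropped in the same order the number higher was 8, 12, 6 and 6. Of all genes, 16.6%, 19.7%, 7.44% and 7.27% were then higher and 12.8%, 16.6%, 5.22% and 4.29% lower. With a library left out, 6.99% to 9.32% of all genes were lower between the labels. With MC010 left out, Mgst2 was reversed to -0.95 and Gstm4 to -0.86. With a library left out, the number lower was 1 to 3 for MC010 and 3 to 6 for MC011 against the WT lines, and 1 to 2 for MC010 against MC011. Each of these fits left 1 line with 1 library, so these numbers are uncertain. With all libraries kept, 17.4% of all genes were lower in MC010 and 13.4% in MC011 than in the WT lines. The share of all genes lower in MC010 than in MC011 was 16%. Without the fold threshold, 4 were lower in MC010 and 9 in MC011 than in the WT lines. MC010 then had 19 higher and 5 lower than MC011, and 1 was higher in MC654 than in MC659. The shares of all genes without that threshold were not counted. Calls were gained between the labels for Gstm4 (0.77), Gpx7 (0.75) and Mgst2 (1.31) with MC011 left out, for Gpx7 (0.63) without library 1 of MC011, and for Gstp1 (-0.61) and Gstp2 (-0.93) with MC010 left out, and between MC010 and MC011 for Gstm1 (0.60) without library 2 of MC010 and Gstp2 (1.17) without library 1 of MC011. Gpx3 and Gsta1, which the filter had left untested, were called higher between the labels with MC010 and with MC659 left out, respectively. They are part of the 8 and 6 above, and both were also called higher with no filter. Where not given by the smaller number of samples, the cause was not tested. Of the alternatives for single members, 727 kept their direction and side of the thresholds, which includes members that were not called to begin with. A call was lost in 74 and gained in 8. The direction changed in 2 where a call was involved and in 26 where none was.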
